A study of Mus musculus with 12 samples.

Results

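Microglia of the cerebellum were compared with microglia of 3 forebrain regions, the cortex, the hippocampus and the striatum, across all expressed genes. The cerebellum supplied 3 of the 12 RNA libraries of the study, and each of the 3 forebrain regions supplied 3 more. The value for the forebrain is the equally weighted mean of its 3 region means on the log scale, so that no region counts more than another. All 4 groups came from male wild type mice of the C57BL/6N strain, aged 60 days, and the labels name no treatment. Each library was made from 3000 sorted live cells that were TMEM119+, CD45 low and CD11b+, taken from tissue pooled from 3 to 5 mice. Whether separate mice went into the pools of 1 region is not given in the labels, and the p-values below therefore reflect only library-to-library spread, which may be technical.

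Microglia are the resident macrophages of the brain, and colony stimulating factor signalling through Csf1r keeps them alive. In the resting state they express Tmem119, P2ry12 and Cx3cr1, and in injury or disease they can lower these genes and raise others such as Apoe and Clec7a. Cerebellar microglia are known to be sparser than those of the forebrain, and differences in immune alertness and in the clearance of dying cells have been described between these regions. The comparison asks whether such a regional difference is seen in sorted, unstimulated cells of the adult brain.

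Total counts were 8862318, 12566066 and 8537139 in cerebellum 1, 2 and 3, and ran from 6479839 in striatum 2 to 14833340 in cortex 2 among the forebrain libraries. The cerebellum libraries held between 12708 and 12807 detected genes. Of 23337 gene symbols, 12217 passed the filter on low counts and were tested. Striatum 2 stood apart from the other libraries: of the 10018 genes that averaged 50 counts or more, 986 were at 0 there, against 14 or 15 in each cerebellum library. The cerebellum libraries correlated with each other at r = 0.888 to 0.919 (log2 of library-scaled counts over all tested genes, 3 pairs), and with the forebrain libraries other than striatum 2 at 0.858 to 0.936 (24 pairs). Along the second principal component, cerebellum 1 and cerebellum 3 stood at 41.9 and -62.2, farther apart than cerebellum 2 (-11.9) was from either. Library 1 stood above library 3 in the forebrain regions too. The values were 78.2 and -36.3 in cortex, 13.3 and -18.7 in hippocampus, and -9.73 and -27.6 in striatum. Several results below are therefore given with and without striatum 2 or cerebellum libraries.

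No gene differed between cerebellum and forebrain after adjustment over all genes tested (edgeR quasi-likelihood test, 0 of 12217 genes, 0%; smallest Benjamini-Hochberg adjusted p = 1.00). Every gene difference below is thus a description of the genes nearest to a difference, with its unadjusted p, and its adjusted p was 1.00. At an unadjusted p under 0.05 there were 131 genes (1.07%), where chance alone gives about 611. Of these, 83 lay higher in cerebellum (0.679%) and 48 lower (0.393%), and 70 of the 131 had a mean under 10 CPM (counts scaled to library size). This split between directions depended on the tool, with 170 higher and 33 lower by limma-voom and 68 higher and 98 lower by DESeq2. DESeq2 called 2 genes and limma-voom 0. The called genes, Mum1l1 and Ppp2r2c, had 0 counts in the 3 cerebellum libraries. In forebrain, Mum1l1 had 136, 65, 45, 26 and 1 counts in 5 libraries and 0 in the other 4, and Ppp2r2c had 173, 33, 12 and 11 counts in 4 libraries and 0 in the other 5.

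The data bounded the difference within 2-fold for part of the well expressed genes, and within 1.5-fold for fewer. Among the 9057 tested genes with a mean of at least 10 CPM, the 95% interval of the difference lay within 2-fold in either direction for 5757 genes and within 1.5-fold for 1875. The median half-width of that interval was 0.67 on the log2 scale. That fewer genes passed than chance gives is no evidence that the regions are equal.

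**Figure D1:**
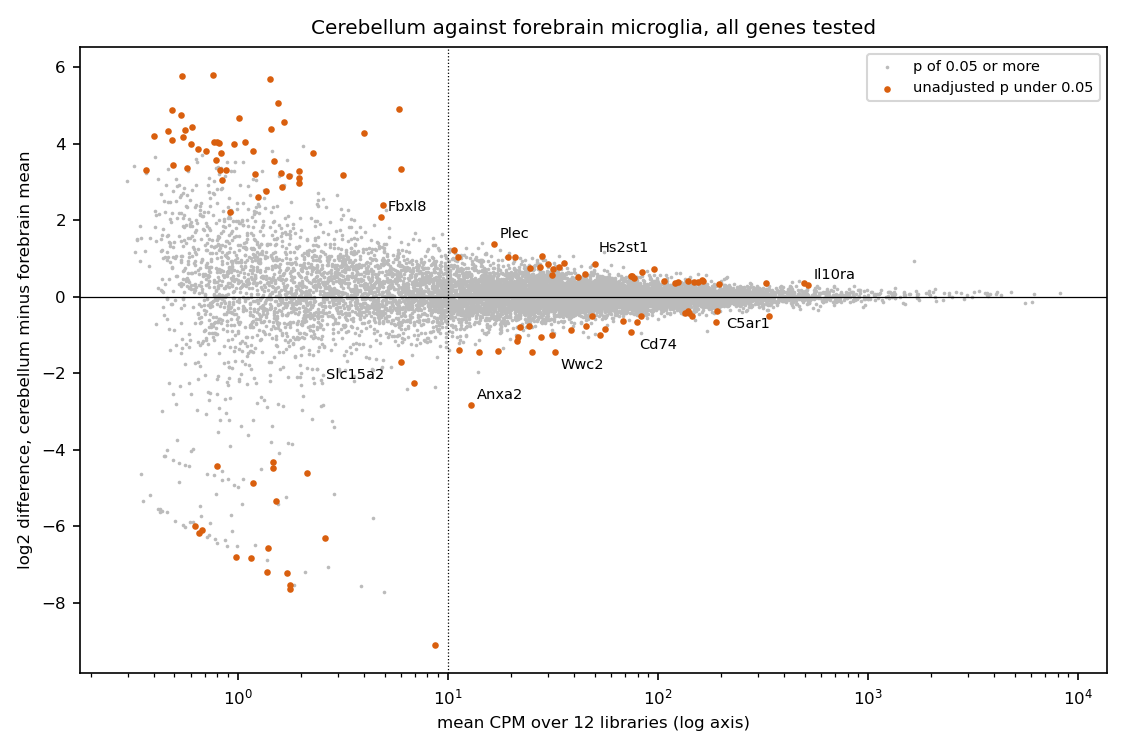
Each point is 1 of the 12217 tested genes, at its mean CPM over the 12 libraries (log axis) and its log2 difference between cerebellum and the forebrain mean; the dotted line marks 10 CPM. The 131 genes at an unadjusted p under 0.05 are in orange, and 70 of them lie left of the line, where the scatter of all genes is wide.

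Among genes with a mean of at least 10 CPM, the 12 with the smallest p that lay higher in cerebellum differed by 0.30 to 1.38 on the log2 scale (unadjusted p = 0.00726 to 0.0259). In 3 of them the cerebellum libraries lay above all forebrain libraries. Aars2, the mitochondrial alanyl-tRNA synthetase (GRCm38 chromosome 17, 45506841 to 45520843), stood at 49.9, 61.2 and 49.5 CPM in cerebellum 1, 2 and 3. In the 9 forebrain libraries its lowest, median and highest values were 17.1, 27.8 and 52.4 CPM, so 1 cortex library reached into the cerebellum range. Its log2 difference was 0.88 (SE 0.28, 1.84-fold, 95% interval 1.22 to 2.80), and 0.87 without striatum 2 and cerebellum 3.

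Hs2st1, which adds 2-O-sulfate to heparan sulfate, stood at 60.8, 93.2 and 72.1 CPM in cerebellum against 24.6, 41.1 and 64.3 CPM (lowest, median and highest) in forebrain. Among forebrain libraries hippocampus 3 alone exceeded a cerebellum library, and the log2 difference was 0.86 (SE 0.27). Elac1, a tRNA-processing ribonuclease Z, stood at 42.9, 48.7 and 55.0 CPM in cerebellum, above all 9 forebrain libraries (15.6 to 42.5 CPM; log2 difference 0.78, SE 0.26). Fam188a, a deubiquitinase now named Mindy3, also separated the groups, with 46.2, 40.2 and 48.7 CPM in cerebellum and 15.6 to 39.6 CPM in forebrain (0.86, SE 0.33). Gmcl1, a germ cell-less family gene, was the third of the 12 without overlap, at 51.9, 62.7 and 67.4 CPM against 25.7 to 47.3 CPM (0.61, SE 0.23). Over all genes, the 3 cerebellum libraries lay above the 9 others for 27 genes (0.221%) and below them for 16 (0.131%). Some genes separate in this way by chance alone, so a lack of overlap, here and below, is a description and was not tested.

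The other higher genes overlapped between groups or rested on 1 library. Crbn, the substrate receptor of a ubiquitin ligase that thalidomide binds, stood at 108, 84.5 and 153 CPM in cerebellum and at 50.4 to 99.4 CPM in forebrain; its log2 difference of 0.65 became 0.36 without striatum 2 and cerebellum 3. Plec, the cytoskeletal linker plectin, stood at 15.3, 19.999 and 55.8 CPM, and its difference of 1.38 became 0.48 without these 2 libraries. Whrn, a scaffold protein known from hair cells, stood at 61.9, 89.8 and 139.9 CPM, and its difference of 0.55 became 0.18. For these genes cerebellum 3 alone carried much of the difference (0.39, 0.60 and 0.19 without it). Trim30d, of an interferon-inducible family whose near-identical members can share reads, stood at 14.4, 34.9 and 44.8 CPM against 8.96 to 25.6 CPM (1.05 with all libraries, 0.67 without both). Ankrd10 (0.41), Cybasc3 (0.36) and Il10ra (0.30) were the smallest differences of the 12. Cybasc3, now named Cyb561a3 and known as a lysosomal cytochrome b561, shares 20.1% of its exon bases with genes on the opposite strand, and the library kit does not mark strand.

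The 12 genes that lay lower with the smallest p differed by 0.51 to 2.83 on the log2 scale (unadjusted p = 0.00640 to 0.0185). In 5 of them the cerebellum libraries lay below all forebrain libraries. C5ar1, the receptor for the complement fragment C5a (chromosome 7, 16246743 to 16259540), stood at 138, 127 and 132 CPM in cerebellum 1, 2 and 3. In forebrain its lowest, median and highest values were 146, 193 and 304 CPM, so every cerebellum library lay below every forebrain library. The log2 difference was -0.65 (SE 0.21, 95% interval -1.10 to -0.20), a level 1.57-fold lower. It was -0.56 against cortex, -0.59 against hippocampus and -0.79 against striatum, and -0.56 against the forebrain without striatum 2 and cerebellum 3.

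Anxa2, a calcium-dependent membrane-binding protein (chromosome 9, 69453620 to 69491795), had the largest difference of the 24 genes. It stood at 2.32, 1.87 and 2.40 CPM in cerebellum and at 2.72, 11.97 and 50.3 CPM (lowest, median and highest) in forebrain (log2 difference -2.83, SE 0.91). The cerebellum libraries were alike, whereas the forebrain libraries were widely spread, with the lowest in striatum 1 and the highest in striatum 2, and without striatum 2 the difference was -2.35. Wwc2, a relative of the Hippo pathway regulator KIBRA, stood at 10.7, 9.84 and 20.002 CPM in cerebellum and at 23.1 to 104 CPM in forebrain (-1.44, SE 0.44), again without overlap. Its striatum 2 value was the highest, and without that library the difference was -1.18.

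Hspd1, the mitochondrial chaperonin Hsp60 (chromosome 1, 55077835 to 55088243), stood at 104, 127 and 101 CPM in cerebellum against 124, 163 and 178 CPM (lowest, median and highest) in forebrain. Its difference was nearly equal against each region, at -0.53 for cortex, -0.51 for hippocampus and -0.49 for striatum (-0.51 against the mean, SE 0.16), with overlap only between cerebellum 2 and striatum 3. Ankrd27, a Rab effector of endosomal traffic also called VARP, stood at 36.5, 26.0 and 28.7 CPM against 36.2 to 100.2 CPM (-0.99, SE 0.31).

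Slamf9, a receptor of the SLAM family on myeloid cells, stood at 26.99, 28.0 and 33.9 CPM in cerebellum and at 32.4 to 73.2 CPM in forebrain (-0.76, SE 0.28). Kdm5a, a histone H3 lysine 4 demethylase, stood at 39.6, 61.0 and 64.6 CPM against 61.8 to 129 CPM (-0.66). Rnf219, a ubiquitin ligase of replication origins, and Entpd7, a nucleoside triphosphate diphosphohydrolase of intracellular membranes, did not overlap between groups (-0.99 and -1.15). Ada, adenosine deaminase, stood at 12.9, 5.78 and 4.07 CPM against 10.9 to 37.8 CPM (-1.42). Of the 12 lower genes, 11 kept an unadjusted p under 0.05 without striatum 2 and cerebellum 3, against 4 of the 12 higher genes. All 24 kept their direction in that fit. Of all 131 genes under 0.05 in the full fit, 52 (39.7%) kept an unadjusted p under 0.05 there. The 24 genes were chosen by their p in the full fit, which holds the same remaining libraries, so these counts are no separate support.

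**Figure D2:**
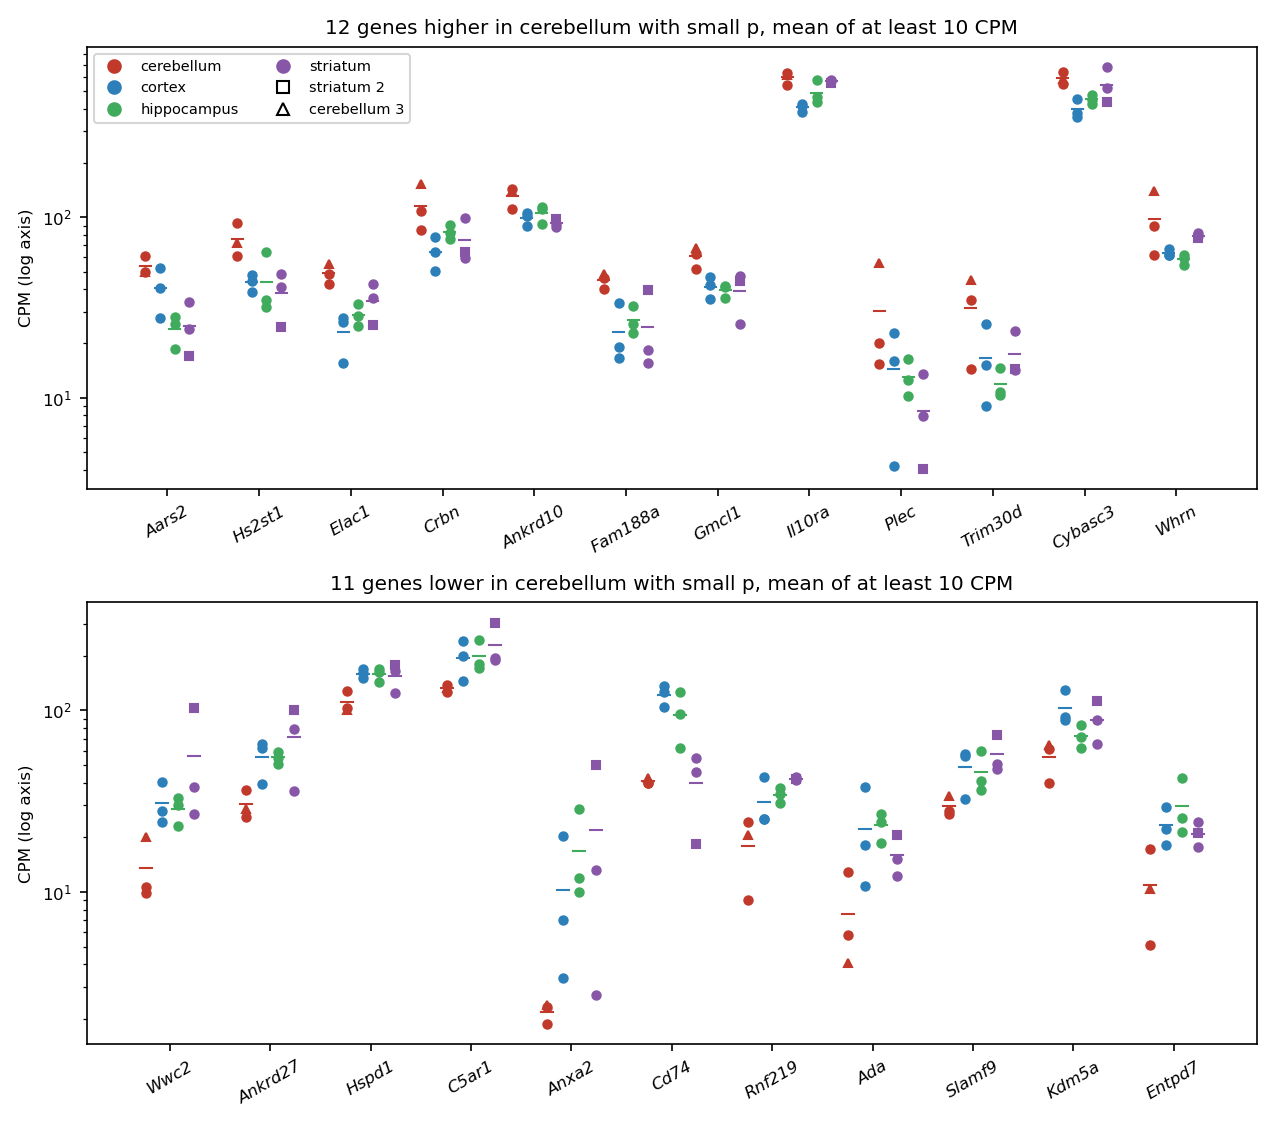
CPM (log axis) of the 12 higher and 11 of the 12 lower genes in each of the 12 libraries, coloured by region, with short lines for region means, squares for striatum 2 and triangles for cerebellum 3. C5ar1 in cerebellum spans 127 to 138 CPM below every forebrain library, whereas Plec is high only in cerebellum 3.

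For a few of the named genes, the observed values were unlike among the 3 regions in the forebrain mean. Cd74, the chaperone that guides MHC class II molecules to their compartment (chromosome 18, 60803848 to 60812652), stood at 39.8, 39.8 and 42.3 CPM in cerebellum 1, 2 and 3. It stood at 104, 127 and 136 CPM in cortex 1, 2 and 3, at 126, 62.0 and 95.1 CPM in hippocampus, and at 54.9, 18.4 and 45.6 CPM in striatum. The cerebellum libraries lay below all cortex and hippocampus libraries and within the striatum range, which reached below them through striatum 2 alone. Without striatum 2 every cerebellum library lay below every forebrain library, and the difference against the forebrain mean was -1.04. With all libraries, against the forebrain mean the log2 difference was -0.92 (SE 0.32), made up of -1.59 against cortex, -1.22 against hippocampus and 0.03 against striatum (95% interval of the mean -1.61 to -0.24; unadjusted p among the forebrain regions 0.0028). These 3 pairwise values share the cerebellum libraries and are not independent.

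Il10ra, the ligand-binding chain of the receptor for the anti-inflammatory cytokine interleukin 10, lay the other way, with its smallest difference against striatum. Its 3 striatum values were alike, unlike those of Cd74. Il10ra stood at 632, 543 and 617 CPM in cerebellum, at 385, 426 and 413 CPM in cortex, at 575, 433 and 465 CPM in hippocampus, and at 579.6, 556 and 569 CPM in striatum. The cerebellum values overlapped those of striatum (log2 difference 0.07) and lay above all 3 cortex values (0.55). Fbxl8, an F-box gene, stood at 9.38, 3.44 and 9.46 CPM in cerebellum and was nearly undetected in cortex alone (0, 0.06 and 0.42 CPM), with log2 differences of 0.68 and 0.08 against hippocampus and striatum. Of the 24 genes, 23 differed in the same direction against each of the 3 regions, and the exception was Cd74, whose value against striatum rested on striatum 2 (18.4 CPM, beside 54.9 and 45.6 CPM in the other striatum libraries).

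**Figure D3:**
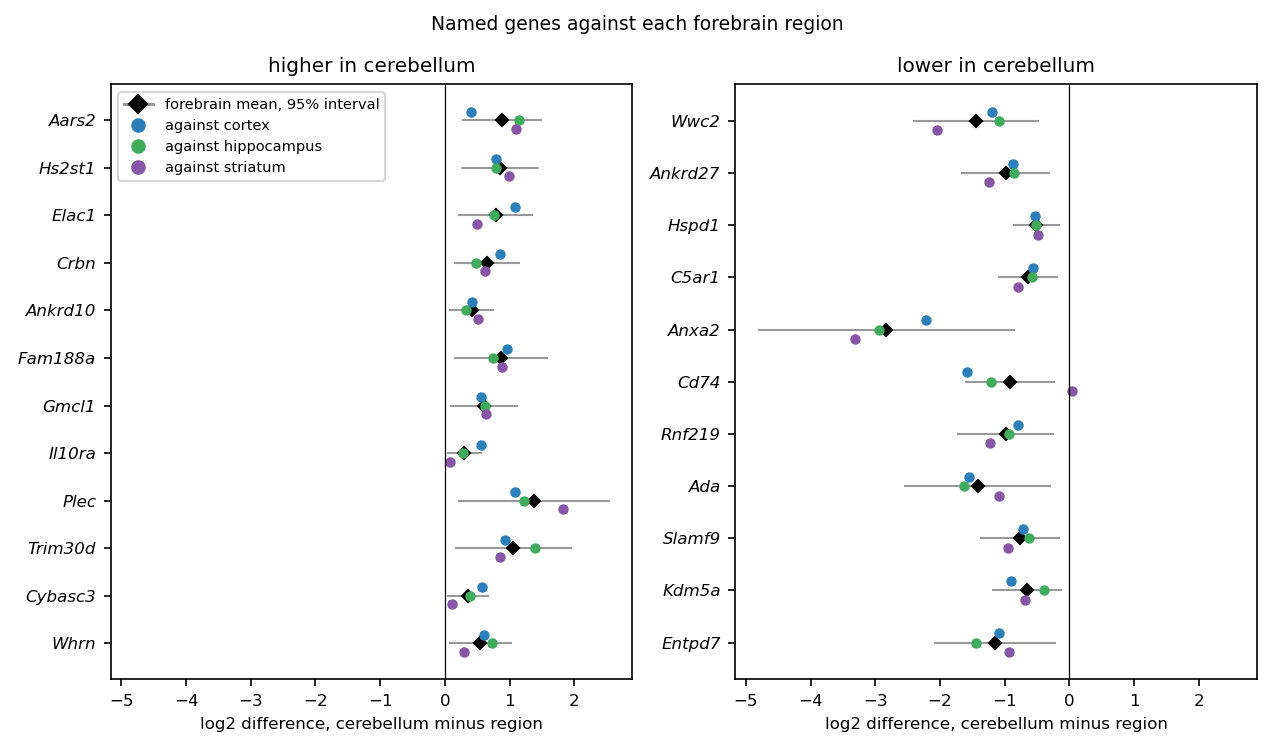
Log2 difference of cerebellum from the forebrain mean (diamonds, with 95% intervals) and from each region (circles) for the 12 higher and 11 of the 12 lower genes. For Hspd1 the 3 circles coincide near -0.5, while for Cd74 the striatum circle sits at 0.03.

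Of the genes with a mean under 10 CPM, the 4 higher and 4 lower with the smallest p were mostly genes detected in part of the libraries. Slc15a2, a proton-coupled peptide transporter, was the exception: it stood at 2.09, 2.42 and 2.16 CPM in cerebellum and at 4.98, 7.60 and 9.51 CPM (lowest, median and highest) in forebrain. Its groups did not overlap, and the log2 difference of -1.70 (SE 0.60) was -1.72, -1.56 and -1.82 against cortex, hippocampus and striatum. Creb3l4, a membrane-bound transcription factor, stood at 1.16, 2.4998 and 2.04 CPM in cerebellum and at 0 in 8 of the 9 forebrain libraries, with 0.855 CPM in hippocampus 3. Kdr, a receptor for vascular endothelial growth factor, stood at 5.21, 8.59 and 2.16 CPM in cerebellum, at 2.20, 1.49 and 6.69 CPM in cortex, and at 0 to 0.92 CPM in hippocampus and striatum. Stx19, a syntaxin, stood at 1.51, 1.64 and 1.44 CPM in cerebellum and at 1.89, 6.63 and 1.03 CPM in striatum, with at most 0.06 CPM in cortex and hippocampus. H2-T10, a class I-like gene with near-identical relatives, stood at 2.43, 4.45 and 0.12 CPM in cerebellum and reached 2.31 CPM in hippocampus 2.

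Fgf1, a fibroblast growth factor, Ptn, the heparin-binding growth factor pleiotrophin, and Pkia, which inhibits protein kinase A, were at 0 counts in every cerebellum library. Against a floor of 3 counts over the region, their pooled forebrain levels were at least 19.8-fold, 23.8-fold and 74.7-fold higher. The pool weighs libraries by depth, unlike the equally weighted mean, and the floor covers counting error only. The value for Pkia came from striatum 2, with 83.1 CPM, and was at least 24.5-fold without it. Fgf1 and Ptn were at 0 in 2 of the 9 forebrain libraries each. Both were low in striatum 1, 2 and 3, with 4, 0 and 2 counts for Fgf1 and 6, 0 and 12 for Ptn. They also varied within cortex, with 18, 48 and 0 counts for Fgf1 and 77, 9 and 0 for Ptn. In bulk samples, fewer cells of a type and less RNA per cell cannot be told apart.

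Of the 36 genes chosen so far by rank or separation, 4 were added only because their cerebellum libraries did not overlap the others. Hdac8, a class I histone deacetylase, stood at 19.7, 23.6 and 22.6 CPM against 4.36 to 17.3 CPM (0.88). Stx16, a syntaxin of the trans-Golgi network, stood at 48.5, 53.8 and 61.7 CPM against 14.2 to 45.2 CPM (0.66), and Tubgcp3, of the gamma-tubulin complex, at 92.2, 104 and 97.4 CPM against 43.9 to 89.9 CPM (0.54). Csrp1, a LIM domain protein, lay below, at 19.6, 17.5 and 19.9 CPM against 22.0 to 39.4 CPM (-0.62). Csrp1, Hdac8 and Stx16 had unadjusted p-values of 0.0512, 0.0579 and 0.0595.

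Genes that define microglia leaned slightly higher in cerebellum, which rested on cerebellum 1. Of 26 homeostatic genes, 25 lay higher in cerebellum, with a median log2 difference of 0.11, whereas over all genes 54.6% lay higher with a median of 0.03. None reached an unadjusted p under 0.05. Tmem119, the gene of the sorted protein, stood at 3241, 2043 and 1082 CPM in cerebellum 1, 2 and 3 and at 1341, 1952 and 2601 CPM (lowest, median and highest) in forebrain. Its cerebellum values spanned more than the whole forebrain range, and its log2 difference was 0.17 (95% interval -0.42 to 0.75). P2ry12, a receptor for ATP and ADP by which microglia sense injury, stood at 6406, 4553 and 4330 CPM (difference 0.12, -0.17 to 0.41), and Cx3cr1, the fractalkine receptor, at 3740, 2527 and 2056 CPM (-0.07, -0.54 to 0.41). Csf1r stood at 8496, 7767 and 9681 CPM (0.11, -0.15 to 0.37). Cerebellum 1 was the highest library for Tmem119, P2ry12 and Cx3cr1, and without it the list's median difference was -0.04.

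Disease-associated microglia genes lay lower for 19 of 26 (median -0.13; 0 at an unadjusted p under 0.05). Apoe, the lipid carrier, stood at 4091, 2956 and 6033 CPM in cerebellum and at 2147, 4159 and 6026 CPM in forebrain, so the groups overlapped throughout (0.04, 95% interval -0.59 to 0.68). Clec7a, the beta-glucan receptor, stood at 4.63, 4.14 and 18.3 CPM in cerebellum, and Cd9, a tetraspanin, at 518, 329.8 and 593 CPM. The median deviation of this list from the mean of the 12 libraries was -0.10, -0.46 and 0.39 in cerebellum 1, 2 and 3, a spread larger than its difference between groups. Without cerebellum 3 the median difference was -0.42, with 22 of 26 genes lower. It was 0.06 without cerebellum 2 and 0.03 without cortex 3, with 15 and 14 of 26 genes higher, so the direction of this list rested on single libraries. Microglial transcription factors lay higher for 13 of 21 (median 0.05), among them Sall3 at 49.2, 84.6 and 125 CPM. Without cerebellum 3, 6 of these 21 lay higher and 15 lower (median -0.05), and without striatum 2 and cerebellum 3 the median was -0.01. Of 12 purinergic genes 8 lay higher (median 0.10), against 5 of 12 without cerebellum 1 (-0.06), and Ada alone was at an unadjusted p under 0.05.

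Lists of immune genes had medians between -0.15 and 0.13. Of the 461 different genes tested in the 22 lists of microglial biology, 6 were at an unadjusted p under 0.05 (1.30%), near the 1.07% of all genes: Il10ra higher, and C5ar1, Cd74, Ada, Mcm6 and Gpi1 lower. Type I interferon response genes lay higher for 17 of 23 (median 0.09), with Rsad2, the antiviral protein viperin, at 11.005, 7.66 and 3.35 CPM in cerebellum against 0 to 6.06 CPM in forebrain (log2 difference 2.04, SE 1.24). This list deviated by 0.59 in cerebellum 1 and by -0.11 in cerebellum 3, and its median difference was -0.06 without cerebellum 1 and 0.28 without cerebellum 3. MHC class I presentation genes lay higher for 12 of 15 (median 0.08), against 8 of 15 without cerebellum 1 (0.04). Examples were H2-K1 at 311, 306 and 345 CPM and Tapbp, which loads peptide, at 442, 353 and 421 CPM. Tapbp shares 29% of its exon bases with other genes. Among 7 MHC class II genes 3 lay higher and 4 lower (median -0.07), against 5 higher without cerebellum 3 (0.33), and H2-Ab1, a class II beta chain, stood at 12.2, 8.59 and 6.35 CPM against 6.54 to 17.3 CPM.

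Complement genes lay higher for 11 of 15 (median 0.08). The median was 0.19 without cerebellum 3 and 0.04 without cerebellum 1, where 9 of 16 tested genes lay higher. C5ar1 was the only complement gene of the list at an unadjusted p under 0.05. C4b, a complement component, stood at 16.4, 3.52 and 28.3 CPM in cerebellum against 0 to 21.9 CPM in forebrain (1.54, SE 1.18). Inhibitory immune receptors lay higher for 15 of 21 (median 0.13), with Fcgr2b, the inhibitory Fc receptor, at 263, 188.5 and 198 CPM against 112 to 216 CPM (0.30, SE 0.19). Without cerebellum 3 these receptors divided into 10 higher and 11 lower (median -0.01), and without striatum 2 and cerebellum 3 into 11 and 10. Chemokine and cytokine receptors lay higher for 19 of 28 (median 0.07, and 0.01 without cerebellum 1), and their ligands lower for 12 of 19 (median -0.15), for example Ccl4 at 9.27, 9.37 and 26.6 CPM against 11.2 to 33.5 CPM. The log2 difference of Ccl4 was -0.59, and -1.28 without cerebellum 3. Genes of clearance and phagocytosis divided evenly, 11 higher and 11 lower (median 0.00, with 0.10 without cerebellum 2 and -0.08 without cerebellum 3). Itgb5, an integrin that binds apoptotic cells, stood at 2818, 2084 and 2009 CPM (0.20, SE 0.12), and Scarb1, a scavenger receptor, at 163, 119 and 169.7 CPM (-0.32, SE 0.19). Lysosomal genes lay lower for 20 of 32 (median -0.03), with Glb1, the beta-galactosidase, at 122, 70.2 and 124 CPM in cerebellum. Without cerebellum 2 the lysosomal count turned to 24 higher and 8 lower (median 0.04), and without cortex 3 to 17 higher and 15 lower.

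**Figure D4:**
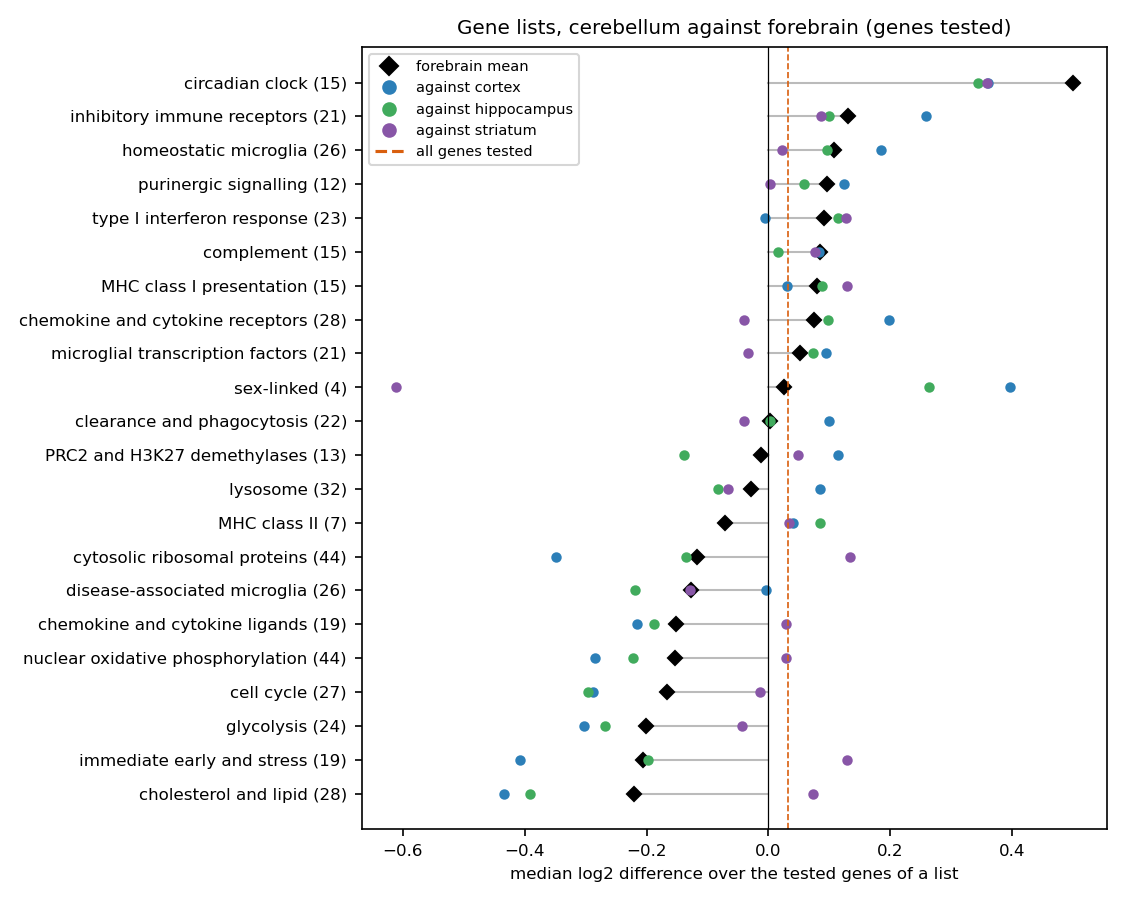
Median log2 difference over the tested genes of each of 22 lists, against the forebrain mean (diamonds) and against each region (circles), with the median of all genes (0.03) as a dashed line; the number of genes tested is in brackets. For oxidative phosphorylation, ribosomal, immediate early and cholesterol genes the striatum circle lies above 0 and the cortex circle below -0.2.

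Lists of energy metabolism, translation and growth leaned lower in cerebellum. Nuclear genes of oxidative phosphorylation lay lower for 39 of 44 (median -0.15), cytosolic ribosomal proteins for 40 of 44 (-0.12), cell cycle genes for 24 of 27 (-0.17) and glycolysis genes for 17 of 24 (-0.20), beside 5551 of all 12217 genes. In these lists 2 genes were at an unadjusted p under 0.05. Mcm6, of the helicase that opens replication origins, stood at 243, 275 and 253 CPM in cerebellum against 234 to 474 CPM in forebrain (-0.50, SE 0.22, unadjusted p = 0.0455). Gpi1, glucose-6-phosphate isomerase, stood at 99.9, 119 and 122 CPM against 119.6 to 192 CPM (-0.37, SE 0.17, unadjusted p = 0.0493), and Gapdh at 287, 255 and 271 CPM against 242 to 422 CPM (-0.29, SE 0.15).

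The cerebellum libraries were not alike in these lists. The median deviation of oxidative phosphorylation genes was 0.32, -0.15 and -0.53 in cerebellum 1, 2 and 3, and that of ribosomal genes 0.25, -0.04 and -0.44. Cerebellum 1 was thus above most forebrain libraries and cerebellum 3 below all of them. Glycolysis genes were less spread, at -0.12, -0.04 and -0.26, below all cortex and hippocampus libraries (0.06 to 0.38). Against striatum the medians were 0.03 for oxidative phosphorylation, 0.13 for ribosomal proteins, -0.01 for cell cycle and -0.04 for glycolysis; against cortex they were -0.28, -0.35, -0.29 and -0.30. Without striatum 2 and cerebellum 3, the oxidative phosphorylation and ribosomal medians were 0.05 and 0.04, with 28 and 30 of 44 genes higher, while glycolysis stayed at -0.19. The cell cycle median was -0.06 without cerebellum 3, -0.09 without striatum 1 and -0.36 without cerebellum 1. That of oxidative phosphorylation was -0.40 and that of ribosomal proteins -0.30 without cerebellum 1, and they were -0.07 and -0.03 without cortex 1.

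Immediate early and stress genes lay lower for 13 of 19 (median -0.21). Egr1, an activity-induced transcription factor, stood at 3.01, 8.20 and 9.82 CPM in cerebellum, at 26.5, 13.8 and 34.1 CPM in cortex, and at 5.98 to 18.6 CPM in hippocampus and striatum (-1.13, SE 0.56, unadjusted p = 0.0645). Jun stood at 200.2, 123 and 167 CPM against 167 to 312 CPM (-0.36, SE 0.21). The list lay lower than cortex (median -0.41) and hippocampus (-0.20) and higher than striatum (0.13), where striatum 2 deviated by -0.77. Cholesterol and lipid genes lay lower for 18 of 28 (median -0.22), with Sqle, squalene epoxidase, at 30.3, 38.7 and 11.02 CPM in cerebellum and 1.94 CPM in striatum 2 against 26.3 to 113 CPM in the other forebrain libraries. Without striatum 1 the median of the cholesterol and lipid genes was -0.07, and without cortex 2 it was -0.13.

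**Figure D5:**
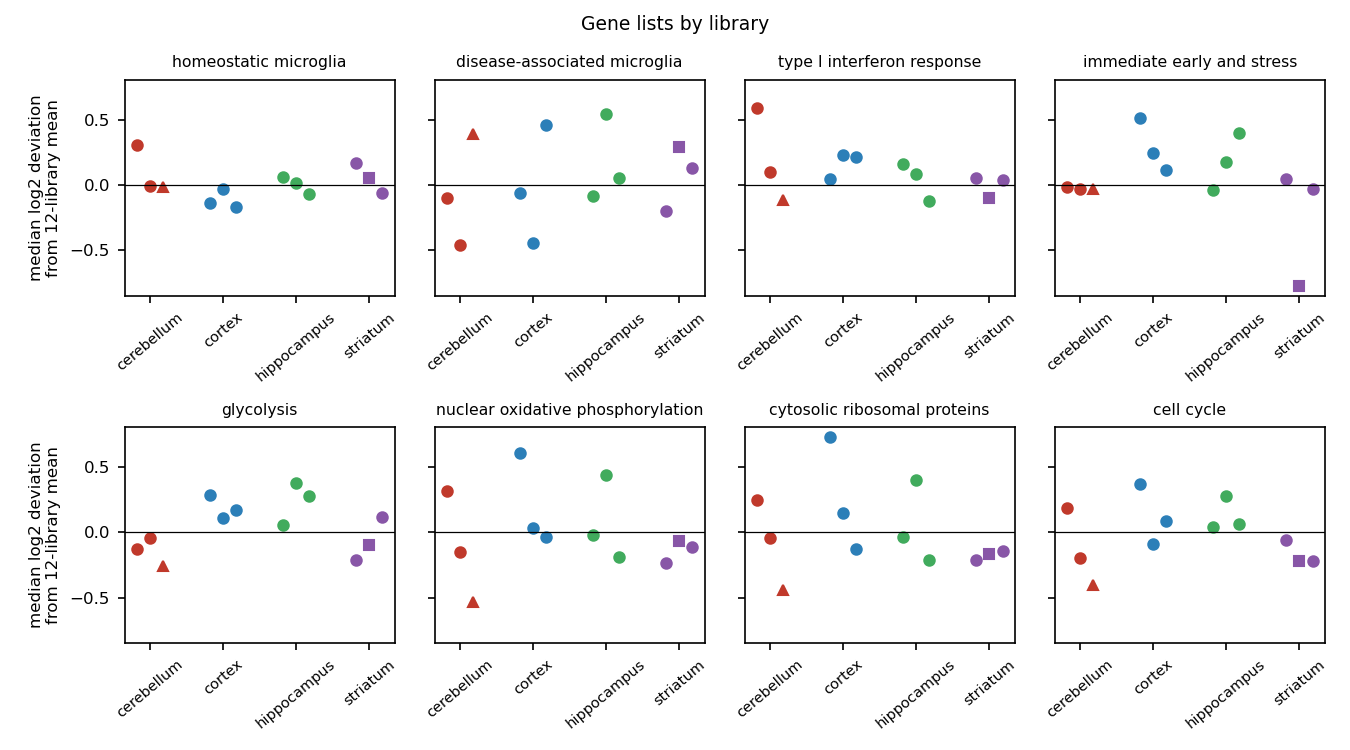
Median log2 deviation of 8 gene lists from the mean of the 12 libraries, for each library, with squares for striatum 2 and triangles for cerebellum 3. The 3 cerebellum libraries spread from 0.32 to -0.53 for oxidative phosphorylation genes, and lie between -0.03 and -0.02 for immediate early and stress genes.

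Summed levels of the markers of other cells overlapped between cerebellum and forebrain. The 12 markers of cerebellar neurons summed to 0.93, 0.16 and 0 CPM in cerebellum 1, 2 and 3, and to 0 to 2.07 CPM in forebrain; none passed the filter. Border-associated macrophage markers, which could enter a CD11b+ gate, summed to 663, 929 and 1651 CPM in cerebellum and 681 to 2222 CPM in forebrain, and 9 of 10 tested genes lay lower (median -0.58). This value rested on single libraries: without cortex 3, 5 of 12 tested genes lay higher and 7 lower (median -0.07), and without cerebellum 3 all 12 lay lower (-1.08). By limma-voom 4 lay higher and 6 lower (-0.09). Mrc1, the mannose receptor, stood at 229, 389.8 and 581.5 CPM in cerebellum. Cd209f was at 0 there, with 8, 0 and 0 counts in cortex, 0, 13 and 42 in hippocampus and 0, 0 and 6 in striatum. Cd163 lay the other way, with 12, 46 and 218 counts in cerebellum and 0 to 159 in forebrain (log2 difference 1.57). Monocyte markers summed to 20.2, 18.7 and 14.4 CPM in cerebellum and to 0 to 20.7 CPM in forebrain. All 4 tested monocyte genes lay higher in cerebellum (median 0.62), with 0 at an unadjusted p under 0.05 and every one overlapping between groups. Among them Ccr2, a chemokine receptor, stood at 5.44, 3.83 and 7.55 CPM (47, 49 and 63 counts) in cerebellum and at 0 to 13.1 CPM in forebrain, whereas Ly6c2, a marker gene of inflammatory monocytes, had no count in any of the 12 libraries. Neutrophil markers summed to at most 0.12 CPM in cerebellum. Cell markers of the choroid plexus and ependyma summed to 0.35, 34.7 and 274.6 CPM in cerebellum and to 0 to 795 CPM in forebrain, with the highest value in striatum 2, and Ttr made up 203 CPM of cerebellum 3. Olig1, of oligodendrocyte precursors, was at 0 in the 3 cerebellum libraries and in 3 of 9 forebrain libraries. Cerebellum 3, the library that carried the differences of Plec, Whrn and Crbn, had the highest choroid plexus and border macrophage sums of its region. The part of these cells in any difference was not tested.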

How the data were processed

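RNA of TMEM119+ microglia from 4 brain regions (3 libraries each) went through Smart-Seq v4 cDNA synthesis and Nextera XT library preparation, per the labels' protocols; this chemistry keeps no strand information. Raw read counts per gene symbol, with no normalization, were deposited by the authors. The submitters' processing notes name HTSeq, Picard, STAR 2.5.3a and Trim Galore 0.4.3, and the mm10 build. The annotation is not given in the sources used here, nor is the strand setting. Groups followed the sample titles.

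The tests were run with edgeR 4.0.16 (R 4.3.3): filterByExpr by region (minimum count 10, minimum total 15), TMM scaling, and a robust quasi-likelihood fit with a mean for each region over all 12 libraries. The contrast was cerebellum minus the mean of the 3 forebrain regions, with Benjamini-Hochberg adjustment over 12217 genes. CPM values use TMM-scaled library sizes. Lists are described by counts and medians without a test. No library was a copy of another, since counts of same-region libraries differed far beyond sampling noise (chi-square 33.8 to 97.5 per degree of freedom). Same-numbered libraries correlated at -0.12 to 0.29 in their deviations from region means (18 pairs, median 0.03, 4 over 0.1). Libraries of different regions and different numbers correlated at -0.23 to 0.20 (36 pairs, median -0.01, 2 over 0.1). These values do not settle whether the numbers pair the libraries. The floor for a gene at 0 is 3 counts, which is 0.347, 0.234 and 0.359 CPM in cerebellum 1, 2 and 3. It covers counting error only, because the libraries carry no molecular identifiers.

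The genes named are the 12 higher and 12 lower with the smallest p among those with a mean of at least 10 CPM, the 4 and 4 with the smallest p among the rest, up to 6 in each direction whose cerebellum libraries did not overlap the others, up to 3 of each list with the smallest p, and Tmem119, P2ry12, Cx3cr1, Csf1r, Apoe, Cd74, Il10ra and Fbxl8. The ranked rules skipped ribosomal protein genes, predicted genes and RIKEN clones. Some genes under the rule are not reported here. The comparison, the 22 lists of microglial biology and the 14 marker lists were chosen with earlier results of these data known. Older symbols were matched through RefSeq synonyms for 11 list members. Locations are GENCODE genes on GRCm38, found for all 134 genes under the rule. The procedure was tested on simulated data. Alternatives were RLE and upper-quartile scaling, DESeq2 1.42.0, limma-voom (limma 3.58.1), no filter and a stricter filter (50 counts in 3 libraries), a replicate block, the 9 forebrain libraries as 1 group, striatum 2 and cerebellum 3 left out together, and each library left out.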

Additional observations from a re-analysis of the deposited data

How the results depend on the processing

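The edgeR fits with all alternatives of scaling, filter and left-out libraries called 0 genes, as did limma-voom, and DESeq2 called 2. Of 1378 values of named genes under an alternative, 18 turned in direction. At an unadjusted p under 0.05, 170 genes lay higher by limma-voom, 467 without the filter on low counts, 38 with the stricter filter and 39 with the 9 forebrain libraries as 1 group. The genes lower numbered 98 by DESeq2, 81 with the forebrain as 1 group and 128 without striatum 2 and cerebellum 3. The cerebellum libraries lay above all others for 14 genes with the stricter filter, and above for 156 and below for 124 without those 2 libraries, where fewer libraries must separate. Over the fits that left out 1 library, 72 to 229 genes lay higher and 39 to 111 lower at an unadjusted p under 0.05, the most in each without cerebellum 1, and 32 to 270 and 18 to 177 genes did not overlap. In these fits the median log2 difference ran from -0.0419 to 0.17 for homeostatic genes, -0.43 to 0.33 for MHC class II, -0.0117 to 0.17 for inhibitory receptors, -0.18 to 0.00357 for Polycomb genes and demethylases, and -0.0578 to 0.22 for purinergic genes. That of chemokine and cytokine ligands was -0.0211 without striatum 2 and cerebellum 3.

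Among single genes, the fits that left out 1 library ran from -0.26 to 0.26 for Apoe, -1.94 to 0.18 for Clec7a, -0.34 to 0.11 for Cx3cr1, -0.35 to 0.13 for Ddx3y, -0.17 to 0.0638 for Eif2s3y, -0.0803 to 0.22 for P2ry12, -0.0531 to 0.59 for Sall3 and -0.27 to 0.48 for Tmem119. Without striatum 2 and cerebellum 3 the values were -0.22 for Apoe, 0.16 for Cx3cr1, 0.00227 for Eif2s3y and -0.16 for Sall3. The cause of these turns was not tested. Aars2, Ankrd27, C5ar1, Cd74, Hspd1, Slc15a2 and Wwc2 stayed at an unadjusted p under 0.05 in all 22 fits. They were chosen by their p in the full fit, and the other fits share its libraries, so this is no separate support.

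With the replicate number as a block, 0 genes passed, 68 lay higher and 41 lower at an unadjusted p under 0.05, and the median of chemokine and cytokine ligands was -0.0522. Whether the numbers pair the libraries was not settled. At these depths, a cerebellum library with no count allows at most 0.359 CPM.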

Other observations

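Circadian clock genes had the largest median log2 difference of the 22 lists of microglial biology, 0.50, with 13 of 15 tested genes higher in cerebellum (0.16 without striatum 2 and cerebellum 3, with 9 of 15 higher). No gene of the list reached an unadjusted p under 0.05. The list's median deviation from the mean of the 12 libraries was -0.10, 0.65 and 0.54 in cerebellum 1, 2 and 3. Its SD within regions was 0.81, larger than the difference. Against cortex, hippocampus and striatum alone the median difference was 0.36, 0.34 and 0.36. Tef, a clock-controlled transcription factor, stood at 49.7, 62.9 and 69.6 CPM in cerebellum 1, 2 and 3, against 25.4 to 61.9 CPM in forebrain (log2 difference 0.52, SE 0.24, unadjusted p = 0.0536). Per2, a repressor in the core clock loop, lay the other way, at 4.87, 6.64 and 0 CPM in cerebellum against 5.91 to 71.4 CPM, with the highest value in striatum 2 (-1.95, SE 1.03). Striatum 2 had no count for Cry1, Cry2, Dbp and Nfil3, and its list median deviated by -2.18 from the mean of the 12 libraries. The hour at which the tissue was taken is not given in the sources used here.

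Other genes whose cerebellum libraries did not overlap the forebrain were chosen for mention after their values were seen. Zc3h14, a poly(A)-binding protein, stood at 168 ± 0.75 CPM in cerebellum and 133 ± 30.9 CPM in forebrain (SD over 3 and 9 libraries; log2 difference 0.34). Arl8a, a small GTPase of lysosome transport, stood at 71.8 ± 3.03 against 101.3 ± 36.5 CPM (-0.48), and Enpp4 at 1.70 ± 1.88 against 8.62 ± 5.39 CPM (-2.24). Pdcd1, the inhibitory receptor PD-1, stood at 4.96 ± 1.62 against 1.75 ± 1.40 CPM (1.69, SE 1.24). None passed the edgeR test (adjusted p = 1.00 each).

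In cerebellum 1, 2 and 3 the Y-linked genes Eif2s3y and Ddx3y stood at 103, 78.0 and 103 CPM and at 94.4, 63.0 and 125 CPM, against 70.4 to 202.6 and 62.1 to 212 CPM in forebrain. Among Polycomb genes and H3K27 demethylases, Kdm6b, a demethylase, stood at 4.40, 12.7 and 3.83 CPM in cerebellum against 1.13 to 5.24 CPM in forebrain (log2 difference 1.25, SE 0.68). Without cerebellum 2 the difference of Kdm6b was 0.49.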
